A study of Mus musculus with 2 samples.

Results

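The genes described here are the cyclins, the cyclin-dependent kinases (CDKs), their inhibitors and phosphatases, and the E2F and RB families, which together time the entry into and passage through the cell cycle. The 46 genes were taken from a fixed list of symbols, and a probe set was used where the platform annotation gave it 1 of these symbols and no other. This matched 45 genes with 101 probe sets, out of 18193 named genes on the array. Cyclin B1 (Ccnb1) had no such probe set and was not analysed here.

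The material was 5cc7 T cells of the mouse, which bear a T cell receptor for a moth cytochrome c peptide. They had been stimulated in culture with MCC peptide, and on day 5 RNA was taken from the resulting blasts, which are large activated lymphocytes. It was read on 2 Affymetrix mouse 430 2.0 arrays, named set 1 and set 2, which form 1 group with no resting, unstimulated or earlier sample. The labels do not say that the arrays hold separate cultures, nor the age, sex or strain of the mice, so the spread between arrays may be technical and no test between conditions was possible. Each value is the deposited intensity of a probe set, on a linear scale, and a mean ± SD is over the 2 arrays (n = 2). The call "above background" was given to probe sets that, on both arrays, lay over the 95th percentile of probe sets for liver, eye, pancreas and kidney genes. That bound was 55.9 on set 1 and 60.9 on set 2. A gene was above background if any of its probe sets was, and its level is that of its brightest probe set. Probes differ in how strongly they bind, so levels of different genes are given side by side and not ranked as amounts of RNA.

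In a dividing cell, D cyclins bind CDK4 and CDK6 in G1 and begin to phosphorylate RB and its relatives, which releases E2F factors that switch on genes of DNA replication. Cyclin E with CDK2 completes this step, cyclin A with CDK2 and CDK1 acts through S phase, and B cyclins with CDK1 drive mitosis. INK4 proteins block CDK4 and CDK6, CIP/KIP proteins bind a wider range of cyclin-CDK complexes, and CDC25 phosphatases and the kinase WEE1 set the activating and inhibitory phosphorylation of the CDKs. T cells leave quiescence through this pathway when their receptor is engaged.

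The labelled cell type was checked first. All 5 measured T cell markers (Cd3d, Cd3e, Cd3g, Cd4 and Thy1) were above background, with means from 1119 to 4671. Of the B cell markers 3 of 4 were above background, with means from 53.9 to 377 over the list and Pax5 the one that was not. Of the myeloid markers 1 of 5 was, Csf1r at 57.3 on set 1 and 146.7 on set 2, and the NK cell marker Ncr1 was not. The myeloid marker Adgre1, at 39.7 and 76.6, exceeded the bound on set 2 only. All 3 markers of proliferating cells were above background, Mki67 at 845.4 and 750.8, Top2a at 807.2 and 831.5 and Pcna at 3147 and 2846. The part that RNA of other cells has in the levels below was not tested, and in RNA from a whole culture fewer cells of a type and less RNA per cell cannot be told apart. Median intensity over 45037 probe sets was 36.4 on set 1 and 37.9 on set 2.

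Upstream DNA of 5 members is shown because it carries, in the part of the pathway that E2F and the mitotic programme are known to act on, the short motifs that were counted over all members. The sequences come from RefSeq (GRCm38.p6), are written 5′ to 3′ on the gene's strand and end at the base before the annotated start of the gene. Capitals mark matches to an E2F motif (TTTCCCGC, TTTGGCGC, TTTCGCGC or TTTGCCGC), the CHR, an element of mitotic genes (TTTGAA or TTTAAA), and the CCAAT box (CCAAT), each on either strand. TTTAAA reads the same on both strands. No match of one kind overlapped a match of another in any member window. The 5 were chosen after the matches were seen.
Cdk1, the mitotic kinase, chr10:69352913-69353062, minus strand: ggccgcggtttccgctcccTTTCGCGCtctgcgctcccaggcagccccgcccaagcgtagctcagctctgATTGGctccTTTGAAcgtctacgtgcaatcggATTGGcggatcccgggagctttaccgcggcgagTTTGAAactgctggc
Ccnb2, cyclin B2, chr9:70421555-70421754, minus strand: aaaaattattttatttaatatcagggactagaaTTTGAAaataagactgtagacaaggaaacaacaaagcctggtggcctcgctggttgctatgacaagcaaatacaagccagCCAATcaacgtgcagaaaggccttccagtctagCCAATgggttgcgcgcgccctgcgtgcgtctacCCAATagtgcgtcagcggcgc
Cdc25a, the CDK phosphatase of G1 and S phase, chr9:109875429-109875578, plus strand: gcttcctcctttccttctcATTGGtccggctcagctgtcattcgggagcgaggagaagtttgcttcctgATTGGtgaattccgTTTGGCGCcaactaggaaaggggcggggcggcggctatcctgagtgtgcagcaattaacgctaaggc
Rbl1, the RB relative p107, chr2:157204535-157204634, minus strand: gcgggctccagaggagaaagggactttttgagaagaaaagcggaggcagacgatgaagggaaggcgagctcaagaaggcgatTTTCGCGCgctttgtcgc
E2f3, an activating E2F, chr13:29986064-29986213, minus strand: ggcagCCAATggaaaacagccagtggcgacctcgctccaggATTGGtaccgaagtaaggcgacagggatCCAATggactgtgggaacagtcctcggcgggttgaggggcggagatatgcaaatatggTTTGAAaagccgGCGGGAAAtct

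Of the 45 measured genes, 40 were above background (88.9%), against 46.1% of all named genes. The 5 that were not were Ccnd1, Cdkn1c, Cdkn2a, Cdkn2b and Cdc25c. Each role therefore had at least 1 gene above background, from the G1 cyclins to the mitotic kinase, and the gaps lay among the D cyclins, the CIP/KIP and INK4 inhibitors and the CDC25 phosphatases. By probe set, 69 of 101 were above background, against 36.7% of all probe sets. The members above background had means from 60.6 to 2096 with a median of 254, and 16 of the 40 exceeded the bound more than 5-fold on both arrays. At the other end, 11 of the 40 did not exceed on both arrays the values of Pomc, a pituitary gene of a second off-tissue list, which were 107 and 118. The brightest gene of that list, the thyroid gene Tg, read 445 and 418, so calls at such levels are weakly separated from absent transcripts. Both Tg values lie over the median of 254 for the members above background. Cdk1, Ccna2 and Ccnb2 are among the members that read below Tg on both arrays. The 11 that did not exceed Pomc were Ccnc, Ccne2, Ccnf, Cdk5, Cdkn3, E2f1, E2f3, E2f5, E2f6, E2f7 and E2f8. Of these, 6 are E2F genes. Against this brighter bound, chosen after the values were seen, 29 members remained, and 34.1% of all named genes.

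**Figure D1:**
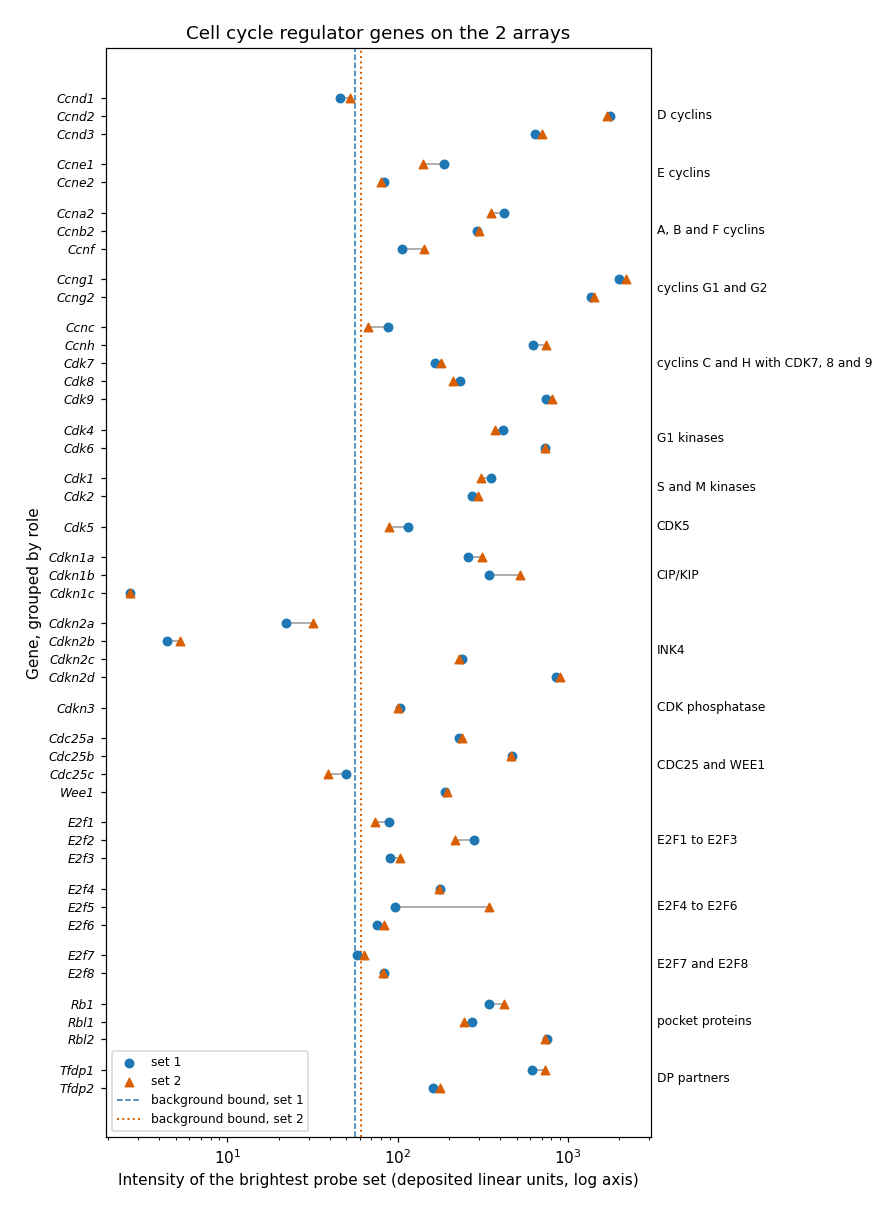
Intensity of the brightest probe set of each of the 45 measured genes on set 1 (circles) and set 2 (triangles), on a log axis, with the background bound of each array as a vertical line and genes grouped by role. Ccnd1, Cdkn1c, Cdkn2a, Cdkn2b and Cdc25c lie left of the bounds, and E2f5 has the widest gap between its symbols (96.3 and 344.1).

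**Figure D2:**
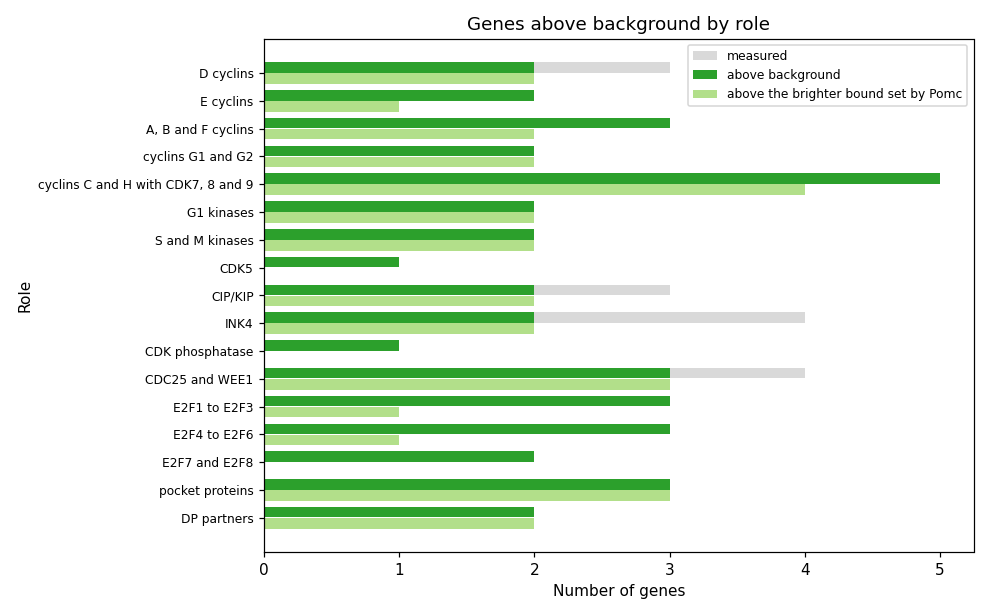
Number of genes in each role that were measured (grey), above background (dark green) and above the brighter bound set by Pomc (light green). All 8 E2F genes pass the first bound, and E2f2 and E2f4 alone among them pass the second.

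The D cyclins, which link growth factor and receptor signals to CDK4 and CDK6, split by paralogue. Cyclin D2 (Ccnd2), the D cyclin known for its induction in activated lymphocytes, read 1758 on set 1 and 1689 on set 2 (1724 ± 48.8). All 7 of its probe sets were above background, although they ranged in mean from 82.9 to 1724. Cyclin D3 (Ccnd3) read 641 and 709 (675 ± 48.0), with 3 of 3 probe sets above background. Cyclin D1 (Ccnd1), the D cyclin of many epithelial and mesenchymal cells, read 45.9 and 52.5 (49.2 ± 4.67) on its brightest probe set. Its other probe sets read 2.1 and 1.9, and 1.3 and 2. Every probe set of D2 and D3 was thus above the bound on both arrays, and no probe set of D1 was. The dimmest probe sets of Ccnd2, at 96.2 and 69.5, and of Ccnd3, at 69.8 and 107.7, did not exceed the values of Pomc. Ccnd1 did pass the loosest bound tried, the median of all probe sets.

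The kinases these cyclins bind were both above background. Cdk4 read 416.8 and 375.2 (396 ± 29.4), with 3 of 3 probe sets above background. Cdk6 read 734.9 and 735.9 (735 ± 0.707), and its second probe set read 543.5 and 562.1. The third Cdk6 probe set read 8.3 and 8.2, so the same gene gave a strong and an undetected signal, each repeated on both arrays.

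The E cyclins, which activate CDK2 at the G1 to S transition, were detected with low values. Ccne1 read 186.1 and 141.2 (164 ± 31.7) on 1 probe set and 99.1 and 85.9 on the other. Ccne2 read 83.3 and 80.4 (81.9 ± 2.05) on its single probe set. On its brightest probe set, whose suffix (_x_at) marks sequence shared between genes or transcripts, Ccne1 exceeded the values of Pomc on both arrays. On its other probe set Ccne1 did not, nor did Ccne2.

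All 3 measured cyclins of S phase to mitosis were above background. Cyclin A2 (Ccna2), which acts with CDK2 in S phase and with CDK1 in G2, read 422.3 and 352.9 (388 ± 49.1), and its second probe set gave almost the same pair, 408.1 and 350.5. Cyclin B2 (Ccnb2), a mitotic cyclin, read 292.3 and 299.3 (296 ± 4.95). Cyclin F (Ccnf), which directs ubiquitin ligation and does not activate a CDK, read 106.4 and 142.4 (124 ± 25.5), with 1 of 2 probe sets above background. The kinases of these phases were Cdk1 at 355.8 and 307.6 (332 ± 34.1) and Cdk2 at 273.8 and 297.3 (286 ± 16.6). A second Cdk2 probe set read 0.5 on both arrays. Ccna2 and Cdk1 were thus both lower on set 2, by 0.29 and 0.24 on the log2 scale for the brightest probe sets, while Ccnb2 differed by 0.01.

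Cyclins G1 and G2, relatives that are known for their links to p53 and to cell cycle arrest, were above background on each of their probe sets. Ccng1 read 1987 and 2205 (2096 ± 155), with its other 2 probe sets at 1347 and 1253 and at 1150 and 1329. Ccng2 read 1372 and 1429 (1401 ± 40.4), and 976.4 and 944.1 on the other probe set. These values lay more than 20-fold over the bound on both arrays for the brightest probe sets.

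The cyclins and kinases that act on CDKs or on RNA polymerase II were all above background. Cyclin H (Ccnh) and Cdk7 form the kinase that activates other CDKs, and read 624 and 746 (685 ± 86.5) and 166.5 and 180.7 (174 ± 10.04). Only 2 of the 5 probe sets of Cdk7 were above background. Cdk9, which releases paused polymerase, read 747.3 and 810.3 (779 ± 44.5). Cyclin C (Ccnc) and Cdk8, parts of the Mediator kinase module, read 88.4 and 67.1 (77.8 ± 15.1) and 231.9 and 212.9 (222 ± 13.4). The second Ccnc probe set ran the other way between the arrays, at 57.6 and 78.8, and 2 of its 5 probe sets were above background. Cdk5, best known from neurons, read 115.6 and 88.7 (102 ± 19.0) with 2 of 3 probe sets above background.

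The CIP/KIP inhibitors p21 and p27 were detected and p57 was not. Cdkn1a (p21), a p53 target, read 259.5 and 312.8 (286 ± 37.7), and its other probe set read 40.3 and 40.0. Cdkn1b (p27), an inhibitor of quiescent lymphocytes, read 344.5 and 520.6 (433 ± 125), and its other probe set read 25.4 and 31.3. Cdkn1c (p57), an imprinted gene of embryonic tissues, read 2.7 on both arrays. For p21 and p27 the call rested on 1 of 2 probe sets, and the arrays differed most for p27.

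The INK4 inhibitors, which bind CDK4 and CDK6 alone, split evenly. Cdkn2c (p18) read 239.4 and 229.1 (234 ± 7.28) and Cdkn2d (p19) read 852 and 894 (873 ± 29.6). Cdkn2b (p15) read 4.4 and 5.3 (4.85 ± 0.636). Cdkn2a, the gene of p16 and ARF, read 22 and 31.8 (26.9 ± 6.93). Each INK4 gene had 1 probe set, so no second probe set bears on these calls. Cdkn2a and Cdkn2b, neither of them above background, are the only members that lie next to each other among protein-coding genes of the RefSeq gene order (chromosome 4). Across both inhibitor families 4 of 7 genes were above background, beside 46.1% of all named genes. The 3 that were not stayed below the bound under each alternative that gave them a value. Cdkn2a had none where probe sets with an _a_at suffix were left out.

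The phosphatases and the kinase that switch CDKs on and off gave 3 genes of 4 above background, with Cdkn3 apart. Cdc25a, which activates CDK2 and CDK1, read 229.2 and 239.4 (234 ± 7.21), and its second probe set read 106.1 and 106.9. Cdc25b, which starts CDK1 activation, read 470.4 and 461.2 (466 ± 6.51). Cdc25c, a mitotic phosphatase, read 49.8 and 39.2 (44.5 ± 7.5), and its other probe set read 13.1 and 31.6. Wee1, which inhibits CDK1, read 189.4 and 195.2 (192 ± 4.10), with 1 of 2 probe sets above background. Cdkn3, a phosphatase that acts on the activating phosphate of CDKs, read 103.6 and 101.1 (102 ± 1.77). Cdc25a, Cdc25b, Wee1 and Cdkn3 each differed between the arrays by less than 0.1 on the log2 scale on their brightest probe sets.

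All 8 E2F genes were above background, 6 of them with a value below that of Pomc on at least 1 array. Among the activators, E2f2 read 281.8 and 216.1 (249 ± 46.5) and 174.5 and 192.5 on its other probe set. E2f1 read 88.6 and 73.4 (81.0 ± 10.7), and its other probe sets, at 35.6 and 36.1 and at 4.6 and 7.6, were not above background. E2f3 read 89.8 and 103.4 (96.6 ± 9.62), with 1 of 2 probe sets above background. E2f2 was therefore the only activator whose probe sets were all above background.

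Among the E2F genes known mainly as repressors, E2f4 read 177.7 and 174.5 (176 ± 2.26) on 1 probe set. E2f6 read 75.3 and 82.8 (79.1 ± 5.30), with 1 of 2 probe sets above background. The atypical E2F genes, whose proteins repress E2F targets without a DP partner, were close to the bound. E2f7 read 57.9 and 63.2 (60.6 ± 3.75), the lowest mean of any member above background, and E2f8 read 83.6 and 82.3 (83.0 ± 0.919). The other E2f8 probe set read 3.2 and 8.1. E2f7 fell below the bound when it was taken from a second list of genes of other organs, as did E2f1, E2f6 and Ccnc.

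E2f5 stood apart from the other members between the arrays. Its brightest probe set read 96.3 on set 1 and 344.1 on set 2 (220 ± 175), a log2 difference of 1.81. Over all probe sets above background the differences ran from -1.55 to 1.81, so none was larger in size. The other E2f5 probe sets read 67.3 and 98.2, a log2 difference of 0.52, and 70.7 and 79.9, a log2 difference of 0.15. All 3 were higher on set 2, but only the first differed by more than 2-fold. On set 1 the 3 probe sets lay between 67.3 and 96.3, and on set 2 between 79.9 and 344.1. E2f5 was above background on each of the 3, so that call does not rest on the probe set that differed.

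The pocket proteins, which hold E2F factors inactive, were all above background. Rb1 read 345.3 and 421.7 (384 ± 54.0), and its other probe set read 10.2 and 2.2. Rbl1 (p107), itself an E2F target, read 271.7 and 245.0 (258 ± 18.9), with 1 of 4 probe sets above background. Rbl2 (p130), the pocket protein of quiescent cells, read 750.3 and 729.5 (740 ± 14.7), with both probe sets above background. The DP partners, which E2F1 to E2F6 need to bind DNA, were Tfdp1 at 619.4 and 733.0 (676 ± 80.3) and Tfdp2 at 161.7 and 176.6 (169 ± 10.5).

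Probe sets of a member often disagreed. Of the 31 members with several probe sets, 29 had at least 1 above background, and in 17 of these (58.6%) another was not. Over all named genes the share was 64.0%. In Cdk2, Cdk6, Rb1, E2f1 and E2f8 the dimmest probe set was under 10.3 on both arrays. With each gene's level taken as its median probe set, 35 of 45 members were above background, against 38.9% of all named genes, and Ccnc, Cdk7, E2f1, E2f8 and Rbl1 were lost. Leaving out probe sets whose suffix marks sequence shared between genes or transcripts (_s_at, _x_at and _a_at) left 40 members with a probe set and 35 above background, against 42.1% of all named genes that kept one. Of the members lost in that way, Cdc25b, Rbl2 and Tfdp1 had no probe set left to call. Cdk2 and E2f1 kept only a probe set that was not above background.

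**Figure D3:**
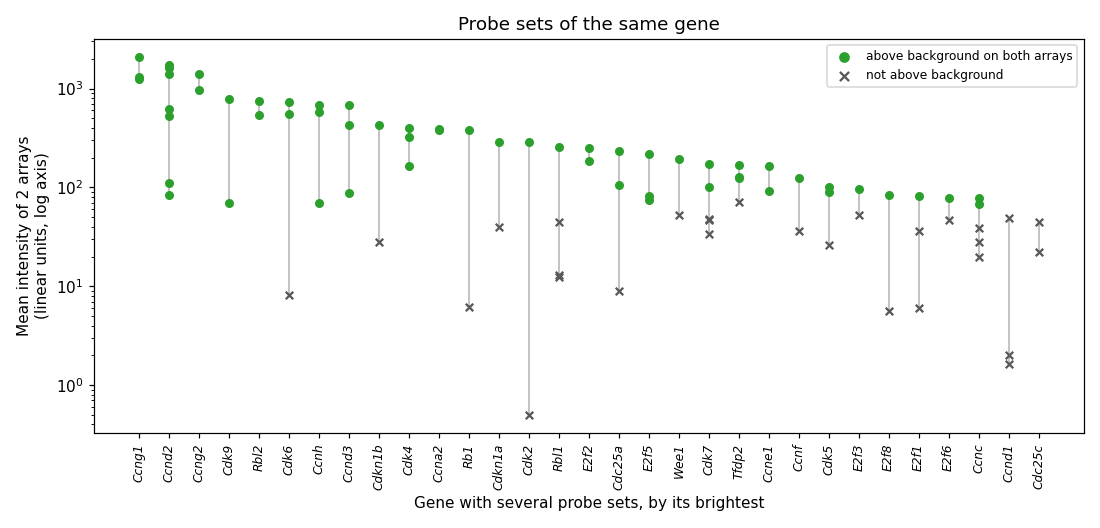
Mean intensity over the 2 arrays of each probe set of the 31 members that have several, on a log axis, with genes ordered by their brightest probe set. Green circles are above background on both arrays and grey crosses are not, and in 17 genes both kinds occur.

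The 2 arrays gave similar values for the members. A difference here is the log2 ratio of set 2 to set 1, lowered by 0.03 so that the median over all probe sets above background is 0. Over the 69 member probe sets above background the median difference was -0.01 and the SD was 0.32, against an SD of 0.24 over all 16536 probe sets above background. The member SD includes an E2f5 probe set at 1.81. The median size of a difference, whatever its direction, was 0.117 for the members and 0.133 for all. Of the 69 probe sets, 33 were higher on set 2 and 36 lower. The difference was over 2-fold for 1 of them, that of E2f5, against 0.181% of all probe sets above background in either direction and 0.163% higher on set 2. It was over 1.5-fold for 2 of them, against 2.62% of all. The second was a Ccnd3 probe set at 69.8 and 107.7, whereas the brightest Ccnd3 probe set differed by 0.12. The p27 probe set, at 344.5 and 520.6, differed by 0.57, which is just under 1.5-fold.

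Each difference was also set against probe sets of like intensity. Under 64 the SD over the 237 probe sets above background was 0.10, a range that the bound itself cuts short. Between 64 and 128 it was 0.28, between 256 and 512 it was 0.19, and over 1024 it was 0.15. With this scale 3 member probe sets lay more than 2 SD from 0, those of E2f5, Cdkn1b and Ccnd3, each higher on set 2. Over all probe sets above background the share was 5.21%, so 3 of 69 is near the background. Across the 69 probe sets Pearson's r of the log2 intensities was 0.976, and it is a description over probe sets that share 2 arrays. By role in the cycle, the median difference of the brightest probe sets was -0.03 for the 5 G1 genes and 0.01 for the 5 genes of S phase to mitosis. It was -0.25 for the 2 E cyclins, 0.10 for the 10 E2F and DP genes and 0.24 for the 7 inhibitors. Of the inhibitors 3 were not above background, and the median is the value of Cdkn2b, which is among those 3. The median was -0.07 for the 3 pocket proteins and 0.09 for the 5 cyclins and kinases of CDK activation and transcription. It was -0.02 both for the CDC25 and WEE1 genes and for the other 4 genes. The G1 median includes Ccnd1 and that of the CDC25 and WEE1 genes includes Cdc25c, neither above background.

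**Figure D4:**
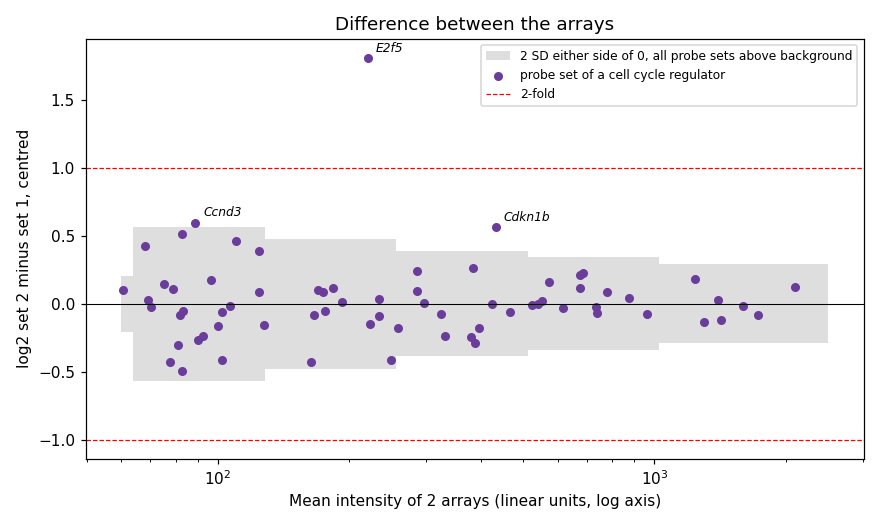
Centred log2 difference between the arrays (set 2 minus set 1) for the 69 member probe sets above background, against their mean intensity on a log axis. The grey band is 2 SD either side of 0 for all probe sets above background in the same intensity range, and E2f5, at 1.81, is the only point beyond the dashed 2-fold lines.

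Other genes of the pathway, which are not members, were also mostly above background, 47 of 57 against 46.1% of all named genes. Of 18 other cyclins and CDKs, 12 were above background, led by cyclin I (Ccni) at 3094 and 2707 and cyclin L2 (Ccnl2), a partner of splicing-linked kinases, at 1149 and 1117. Ccnj, Ccno and Cdk10 were among the 6 that were not. Of 16 genes for CDK activation and for the turnover of cyclins and inhibitors, 15 were above background. The CDK subunit Cks1b, needed for p27 breakdown, read 993.5 and 1118, and Cdc20, which activates the anaphase-promoting complex, read 689.7 and 704.8. The exception was Pkmyt1, a WEE1 relative, at 64.4 and 43.3. Skp2, the ubiquitin ligase subunit that marks p27 for breakdown, was above background on 1 of 6 probe sets, at 69.1 and 70.4, and was chosen here after its value was seen.

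The DREAM and MuvB group partners the pocket proteins and E2F4 in quiescence and B-MYB and FOXM1 in mitosis. Of its genes 6 of 8 were above background, beside 46.1% of all named genes. Rbbp4 read 1404 and 1667 and Lin37 read 242.0 and 170.9. Lin9, at 51.9 and 27.2, and the A-MYB gene Mybl1, at 10.3 and 6.9, were not above background. The B-MYB gene Mybl2 read 57.4 and 71.6, with 1 of 2 probe sets above background. Foxm1 read 135.5 and 118.9, with 2 of 4 above background. Mybl2 and Foxm1 were chosen here after their values were seen. Among genes known as E2F targets, 18 of 19 measured were above background, of which 4 are also members. The replication clamp gene Pcna read 3147 and 2846 and the helicase gene Mcm7 read 1406 and 1386. The thymidylate synthase gene Tyms was the exception, at 31.7 and 26.7, with none of 4 probe sets above background.

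Promoter motifs were counted in the window from 250 bases before to 50 after the annotated start, which RefSeq gave for 34 of the 46 members. Some genes had several windows, and a gene was counted for a motif if any of its windows held it. Different motifs counted for a gene can thus lie in different windows. An E2F motif was present in 9 of 34 (26.5%), namely Cdc25a, Cdk1, Cdk2, Cdkn2a, E2f2, E2f3, E2f7, Rbl1 and Tfdp1. The share was 5.28% among genes above background and 2.60% among all genes of the table. In the sequences shown, the motif of Rbl1 starts 18 bases before the start of the gene, that of Cdc25a 67 bases before it, that of Cdk1 131 bases before it, and that of E2f3, on the opposite strand, 11 bases before it. By call, 8 of the 9 genes with the motif and 23 of 24 measured genes without it were above background. The exceptions were Cdkn2a, with the motif, and Cdkn2b, without it.

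A CHR was present in 14 of 34 members (41.2%), against 22.1% of genes above background and 30.6% of all genes, and a CCAAT box in 20 (58.8%), against 42.8% and 41.1%. Both occurred together in 9 members, and in 4 of the 5 genes of S phase to mitosis with a window, which were Ccnb1, Ccnb2, Ccnf and Cdk1. The share with both was 10.3% among genes above background and 13.4% among all genes. The window of Ccnb2 holds 3 CCAAT boxes, 87, 54 and 21 bases before the start, and that of Cdk1 holds, in the stretch shown, CCAAT boxes on the opposite strand at 80 and 48 bases before it and CHRs at 71 and 15. None of the 3 G1 genes with a window (Ccnd3, Cdk4 and Cdk6) held an E2F motif or a CHR. These matches describe letters in a window and not binding, which was not measured.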

How the data were processed

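RNA of 5cc7 T cell blasts was measured on 2 arrays of 1 group, and groups were taken from the sample titles. The authors deposited 1 intensity for each probe set on each array, whose range shows a linear scale. Their background correction, probe summary and scaling were not stated in the sources that were used. Of 45101 probe sets, 64 controls were left out; 34958 had 1 gene symbol, 932 several and 9211 were not listed in the platform annotation. All 45 measured member symbols matched RefSeq (GRCm38.p6) by Entrez identifier.

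The members, gene lists and rules were chosen with earlier results of these data known. Every member is named; from each list of other pathway genes the 2 brightest above background and up to 3 not above background in alphabetical order are named. The bound used 44 off-tissue genes with 58 probe sets, of which 2 genes exceeded it; of 51 genes of a second such list 7 did. Intensities under 1 were set to 1 before log2. No test between groups was possible, and 2 arrays limit the precision. Calls and differences were tested on simulated data. Alternatives changed the bound, gene level, probe sets, arrays, fold limit, floor, centring and motif. Python 3.11.15, numpy 2.4.6, pandas 2.3.3 and matplotlib 3.10.9 were used.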

Additional observations from a re-analysis of the deposited data

How the results depend on the processing

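The number of members above background was 40 with set 2 alone (48.0% of all named genes), with set 1 alone (48.9%) and with the 90th percentile as the bound (48.7%). It was 36 with the bound from the second off-tissue list (40.5%), 42 with the median of all probe sets (55.4%), 35 with the median probe set of each gene (38.9%) and 35 of 40 without the shared-sequence probe sets (42.1%). With the values of Pomc as the bound, an alternative added after the data were seen, it was 29 (34.1%). For the other pathway genes the counts under the same alternatives ran from 37 to 49, beside 47 as reported, and with either array alone they were 48 and 49. Cdc25c and Ccnd1 were the members gained under the median of all probe sets. The number of member probe sets past the fold limit was 1 as reported, 2 with a limit of 1.5-fold and 5 with no filter on dim probe sets, where 101 probe sets were counted; it stayed at 1 with a floor of 16, no centring or quantile normalization. The log2 difference of the E2f5 probe set lay between 1.80 and 1.84 and the median difference of the members between -0.01 and 0.02 under those settings. The E2F motif count of 9 fell to 4 with TTTCCCGC alone and to 2 with TTTGGCGC alone, since fewer forms were searched. No paired analysis was possible because there was 1 group. Signal near the bound limits the calls of the dim genes, E2f7 above all.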
